A study of Mus musculus with 21 samples.

Results

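Khdc1a, Dnase2b, Cyp2c70 and Osbp2 are 4 protein-coding genes of 31053 in the count tables of mouse embryonic stem cells. They were chosen by their read counts, for a large increase when the group labelled 2i+LIF HP was set against 2i+LIF LP or against CH+LIF HP. Their levels in those groups therefore describe the choice and are given without a test. All 4 were among the 10643 genes that passed the filter on low counts, which they could only do through their counts in 2i+LIF HP.

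The 21 libraries were mRNA sequencing of E14Tg2a, a male stem cell line of 129 background with a destabilised green fluorescent protein knocked into 1 allele of Rex1 (Zfp42). Every group carried this reporter. The 7 groups of 3 replicates were labelled 2i+LIF PO, 2i+LIF LP, CH+LIF LP, LIF LP, 2i+LIF HP, CH+LIF HP and LIF HP. LIF is a cytokine that sustains self-renewal, CH is CHIR99021, an inhibitor of GSK3 that stabilises beta-catenin, and PD (PD0325901) inhibits MEK. The name 2i usually stands for CH with PD. The study sampled the cells at zero passage and after 1 and 2 months, the labels do not say whether LP or HP cells had been cultured for longer, and PO was read as zero passage. Per the labels' protocols, all groups were first kept in NDiff227 with CHIR99021 (3 uM) and PD for a week, and the inhibitors and LIF were then given and withdrawn in turn at each passage. Whether the replicates came from separate cultures, or the line from 1 clone, was not stated, so that p-values measure only the spread between these libraries.

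The 4 genes are known from different adult tissues and from the egg. Khdc1a encodes a KH-domain protein of a mammalian gene family that is best known from oocytes and early embryos. Dnase2b encodes an acid endonuclease of the lysosome, known for clearing nuclear DNA from the fibre cells of the lens. Cyp2c70 encodes the cytochrome P450 of mouse liver that makes muricholic acids, the rodent-specific bile acids. Osbp2, also called ORP4, encodes a sterol-binding protein of the oxysterol-binding protein family that is found in testis, retina and brain.

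The genes lie on 4 different chromosomes. On GRCm38 with the GENCODE M21 annotation, Khdc1a (ENSMUSG00000067750) spans chr1:21349641-21352200 on the plus strand and Dnase2b (ENSMUSG00000028185) spans chr3:146580985-146615596 on the minus strand. Cyp2c70 (ENSMUSG00000060613) spans chr19:40153353-40187333 and Osbp2 (ENSMUSG00000020435) spans chr11:3703731-3863903, both on the minus strand. Dnase2b lies wholly inside the span of Uox, the urate oxidase gene, which runs on the other strand from 146570426 to 146632305.

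The 250 bases before the transcription start are shown for the genes held in the RefSeq promoter table (GRCm38.p6), to let the starts of genes with a like profile be compared. Khdc1b, the neighbour of Khdc1a with the same expression pattern, is shown beside Dnase2b, Cyp2c70 and the first of 3 Osbp2 start sites. Capitals mark every match, on either strand, to one of the words searched: those of TCF/LEF, the TATA box and the E-box (spelled out with their results), the HNF4 word CAAAGTCCA and the heat shock element core GAANNTTC. The windows are chr3:146615599-146615848 (Dnase2b, minus), chr19:40187287-40187536 (Cyp2c70, minus), chr11:3863904-3864153 (Osbp2, minus) and chr1:21383306-21383555 (Khdc1b, plus).
Dnase2b: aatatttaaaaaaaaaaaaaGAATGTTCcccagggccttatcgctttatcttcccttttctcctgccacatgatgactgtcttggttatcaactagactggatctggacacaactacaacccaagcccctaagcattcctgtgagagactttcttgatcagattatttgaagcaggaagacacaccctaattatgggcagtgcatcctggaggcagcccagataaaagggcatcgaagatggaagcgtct
Cyp2c70: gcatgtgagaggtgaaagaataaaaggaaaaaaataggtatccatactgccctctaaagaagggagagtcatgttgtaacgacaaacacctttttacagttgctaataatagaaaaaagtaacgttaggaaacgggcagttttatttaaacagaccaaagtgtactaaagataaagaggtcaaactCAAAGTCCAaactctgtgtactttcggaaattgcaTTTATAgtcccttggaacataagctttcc
Osbp2: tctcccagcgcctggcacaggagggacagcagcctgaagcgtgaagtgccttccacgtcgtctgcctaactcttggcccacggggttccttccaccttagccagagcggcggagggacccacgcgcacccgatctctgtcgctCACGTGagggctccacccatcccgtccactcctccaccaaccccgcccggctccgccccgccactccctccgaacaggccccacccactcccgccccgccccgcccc
Khdc1b: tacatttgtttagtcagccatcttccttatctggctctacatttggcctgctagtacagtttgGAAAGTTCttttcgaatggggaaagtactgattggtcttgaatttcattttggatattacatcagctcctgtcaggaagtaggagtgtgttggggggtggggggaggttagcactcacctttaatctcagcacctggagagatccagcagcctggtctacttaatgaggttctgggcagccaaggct
The printed windows had little in common. The Osbp2 window was rich in CpG, with 21 CpG and 70.4% GC, while Dnase2b had 3 CpG (43.6% GC), Cyp2c70 had 4 (36% GC) and Khdc1b had 1 (46.4% GC). Over 32851 RefSeq promoters of this length the median was 6 CpG and 52.4% GC. Of the words found, 1 form was shared by 2 of the 4 windows. Dnase2b held the heat shock word GAATGTTC at positions -230 to -223 before the start, a word of the form that HSF4, a lens regulator, can bind, and 6.69% of all promoters held this form. Khdc1b held the same form, as GAAAGTTC, at -187 to -180. Cyp2c70 held CAAAGTCCA at -64 to -56, the word read by the liver factor HNF4, which 0.384% of promoters held. It also held the TATA box (TATAAA) on the other strand at -29 to -24, which 12.4% of promoters held on either strand. Positions are given from the RefSeq start. The GENCODE span of Cyp2c70 begins further upstream, at 40187333, so the last part of this window, with the TATA match, lies inside that span. Osbp2 held the E-box CACGTG at -107 to -102, found in 6.02% of promoters. The TCF/LEF word was searched in 3 forms, of which the first was CTTTGAA. The second form read CTTTGAT. The third form read CTTTGTT. None of these 3 occurred in these windows on either strand, and 12% of all promoters held at least 1 of them. A second Osbp2 window held 27 CpG and no word searched, and the third held 2 CpG and the heat shock form again, as GAACTTTC, at -173 to -166. These matches describe letters and show no binding. RNA of 2 factors that can read such words was low in every group, with 2 to 11 counts of Hnf4a and 0 to 17 of Hsf4 per group. In 2i+LIF HP they had 2 and 3 counts over the 3 libraries. The part of these or other factors in the levels of the genes was not tested.

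Khdc1a had the highest level of the 4 genes in 2i+LIF HP and the widest spread. Its counts were 13, 267 and 100 in replicates 1, 2 and 3, or 6.04, 145.5 and 95.8 counts scaled to a library of 1e+06 (CPM, with TMM scaling), a mean of 82.5 ± 70.7 CPM (SD, n = 3). In the other 18 libraries it had 1 count in 2i+LIF PO replicate 3 and 1 count in CH+LIF HP replicate 1. All 3 libraries of 2i+LIF HP thus lay above every other library, and 99.5% of all Khdc1a counts came from them. Against 2i+LIF LP the pooled level of Khdc1a was at least 150-fold higher, with the 0 counts there set to the 3 that a zero allows over the group. Against CH+LIF HP, which held 1 count, the ratio was 392 with a 95% interval of 69.9 to 15500. These intervals and bounds cover counting error only, and no molecular identifiers are named in the sources used here.

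Dnase2b was found in 2i+LIF HP and in no other library. The 3 replicates had 16, 75 and 80 counts (7.44, 40.9 and 76.7 CPM, a mean of 41.7 ± 34.6), and the other 18 libraries had 0. The pooled level was at least 67.7-fold higher than in 2i+LIF LP and at least 58.8-fold higher than in CH+LIF HP. A count of 0 over a group still allowed 0.297 CPM in 2i+LIF PO, the deepest group, and 0.542 to 0.636 CPM in the other 5 groups. The related acid nuclease Dnase2a, which serves most cell types, was read in every library, at 109 ± 11.4 CPM in 2i+LIF HP and 161 ± 100 in 2i+LIF LP (n = 3 each).

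Cyp2c70 had 22, 86 and 59 counts in the replicates of 2i+LIF HP (10.2, 46.9 and 56.5 CPM, a mean of 37.9 ± 24.4). Elsewhere only 2 counts were seen, 1 each in LIF HP replicates 2 and 3. The groups did not overlap, and the pooled ratio to LIF HP was 97.3 (95% interval 26.5 to 810). Cyp2c70 was at least 66.1-fold higher than in 2i+LIF LP and at least 57.4-fold higher than in CH+LIF HP.

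Osbp2 differed from the other 3 genes in having a low level in 4 further groups. In 2i+LIF HP its counts were 26, 100 and 46 (12.1, 54.5 and 44.1 CPM, a mean of 36.9 ± 22.1). In CH+LIF LP it had 12, 0 and 4 counts (2.95 ± 2.91 CPM), and in 2i+LIF PO it had 1, 3 and 11 (1.35 ± 1.21). The lowest library of 2i+LIF HP was above the highest of all others. In 2i+LIF LP it had 0, 4 and 3 counts (1.13 ± 0.982 CPM) and in LIF LP 3, 1 and 0 (0.772 ± 0.831), while CH+LIF HP and LIF HP had none. The pooled ratio of 2i+LIF HP was 29.2 to 2i+LIF LP (95% interval 13.9 to 73.7) and 10.9 to CH+LIF LP (6.55 to 19.6), and it was at least 59.1 to CH+LIF HP. Of all Osbp2 counts, 80.4% lay in 2i+LIF HP. The low means rest on single libraries: with 1 library left out they ran from 1.52 (without replicate 1) to 4.43 CPM (without replicate 2) in CH+LIF LP, and from 0.656 (without replicate 3) to 1.76 (without replicate 1) in 2i+LIF PO. In 2i+LIF LP they ran from 0.839 (without replicate 2) to 1.7 (without replicate 1) and in LIF LP from 0.332 (without replicate 1) to 1.16 (without replicate 3).

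**Figure D1:**
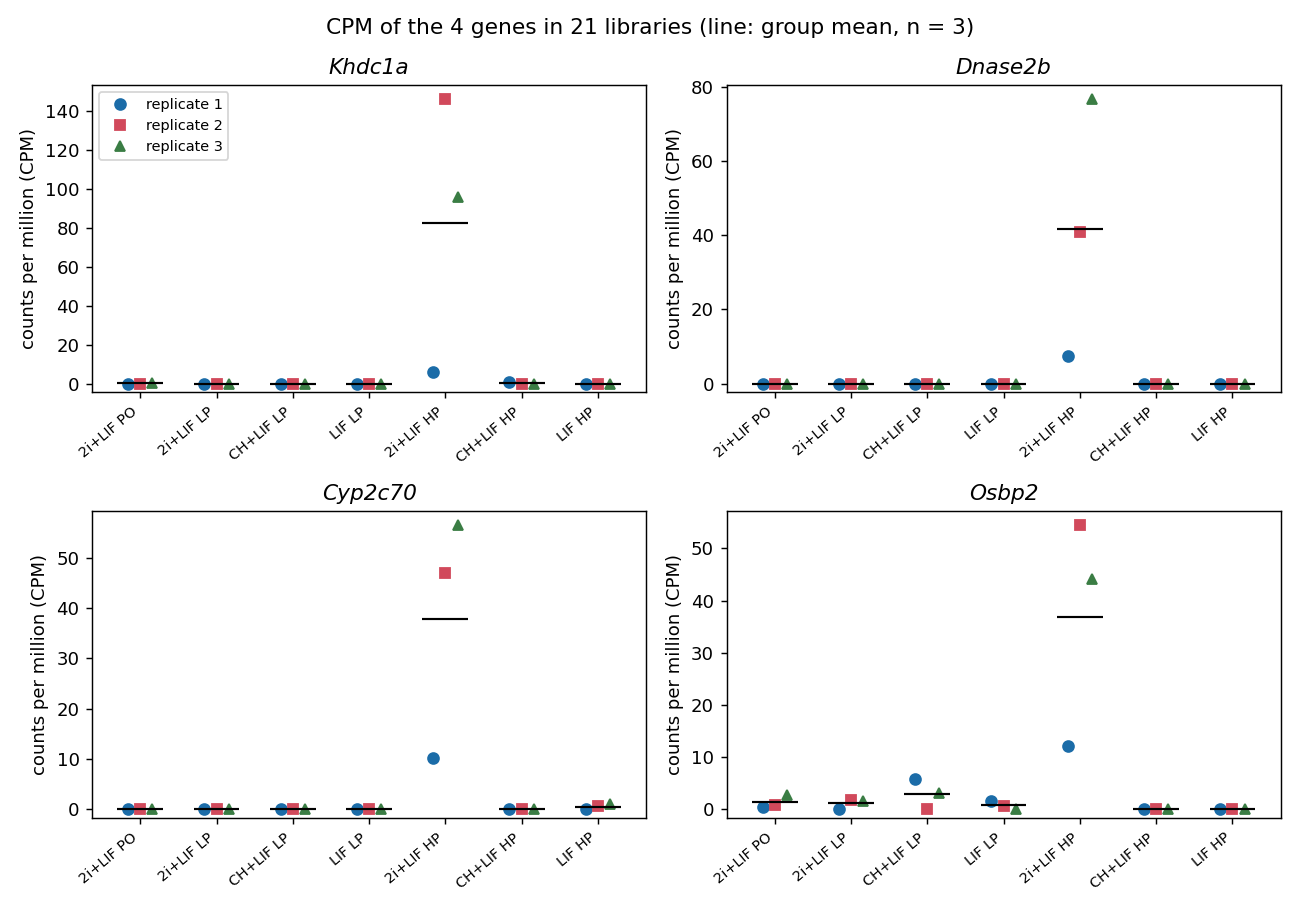
CPM (linear axes) of Khdc1a, Dnase2b, Cyp2c70 and Osbp2 in each of the 21 libraries, by group; symbols mark the replicate number and the line is the mean of 3. The 2i+LIF HP libraries stand above all others in each panel, with replicate 1 the lowest, and only Osbp2 shows visible levels in PO and LP groups.

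Per kilobase of exon, the scale on which genes can be compared, the order in 2i+LIF HP was Khdc1a (mean 41.5 CPM per kb), Cyp2c70 (19.1), Dnase2b (14.9) and Osbp2 (5.8). The first place of Khdc1a did not hold in every library, because replicate 1 of 2i+LIF HP had little of it. Below 2i+LIF HP, no 2 groups next to each other in the order of means were separate for any of the 4 genes. In 2i+LIF HP against 2i+LIF LP, 4 of 4 genes had all 3 libraries above all 3, as had 8.43% of genes tested, and against CH+LIF HP 4 of 4, beside 9.45%. The choice of the genes fixed these counts. The same held against LIF HP (4 of 4 beside 13.5%) and against 2i+LIF PO (4 of 4 beside 13.1%), comparisons that share the 2i+LIF HP libraries with the choice. The PO libraries came from another sequencing run by their file names, so run and PO cannot be told apart.

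The choice had a soft edge. Among 165 genes that passed the test with 2i+LIF HP above 2i+LIF LP, apart without overlap and at 5 CPM or more, the largest fitted log2 fold changes were those of Khdc1a (10.3), Dnase2b (9.3) and Cyp2c70 (9.17). St8sia2, a polysialic acid synthase (8.64), and Gm11238 (8.1) came next and were left outside. Against CH+LIF HP, Dnase2b (9.3), Cyp2c70 (9.17) and Osbp2 (9.14) led 98 such genes, with St8sia2 and the secreted Wnt antagonist Dkk1 (both 8.64) just outside and Khdc1a seventh (8.26). These fitted values depend on the constant added to zero counts and only rank the genes.

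In the 5 comparisons that hold none of the groups used for the choice, only Osbp2 had more than 3 counts. It entered the fit only through its counts in 2i+LIF HP, and it had 4 to 31 counts over the 2 groups of each comparison, so these values are given as they stand and nothing is read from them. By edgeR's quasi-likelihood test with Benjamini-Hochberg adjustment Osbp2 was called in 0 of the 5, and DESeq2 also called 0. An unadjusted p under 0.05 was found in 1, LIF HP against 2i+LIF PO, where 28.7% of all genes had one, beside 26.3% for LIF HP against LIF LP, 24% for CH+LIF LP and 27.5% for LIF LP against 2i+LIF PO, and 4.71% for LIF LP against CH+LIF LP. The adjusted p was 0.129 for LIF HP against 2i+LIF PO, beside 12.3% of genes called, and 0.303 for LIF HP against LIF LP, beside 9.96%. For CH+LIF LP against 2i+LIF PO the log2 fold change was 1.04 (SE 0.98, adjusted p 0.553 in edgeR), beside 8.31% called. LIF LP gave -0.89 against 2i+LIF PO (SE 1.16, adjusted p 0.667, beside 12% called) and -1.93 against CH+LIF LP (SE 1.16, adjusted p 1, beside 0.047%).

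The replicates of 2i+LIF HP were unequal for all 4 genes in the same sense. Replicate 1 was the lowest each time, as it was for 31.8% of genes tested. The highest replicate exceeded it 24.1-fold for Khdc1a, 10.3-fold for Dnase2b, 5.53-fold for Cyp2c70 and 4.51-fold for Osbp2. The top place was not shared: Khdc1a and Osbp2 peaked in replicate 2, Dnase2b and Cyp2c70 in replicate 3. Replicates 1, 2 and 3 had 1813343, 1717302 and 1132126 gene counts, and the part of depth or RNA quality in this spread was not tested. In these bulk libraries, more cells with the transcript and more transcript per cell cannot be told apart. With replicate 1 left out the mean of Khdc1a was 121 CPM, and with replicate 2 left out it was 50.9.

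**Figure D2:**
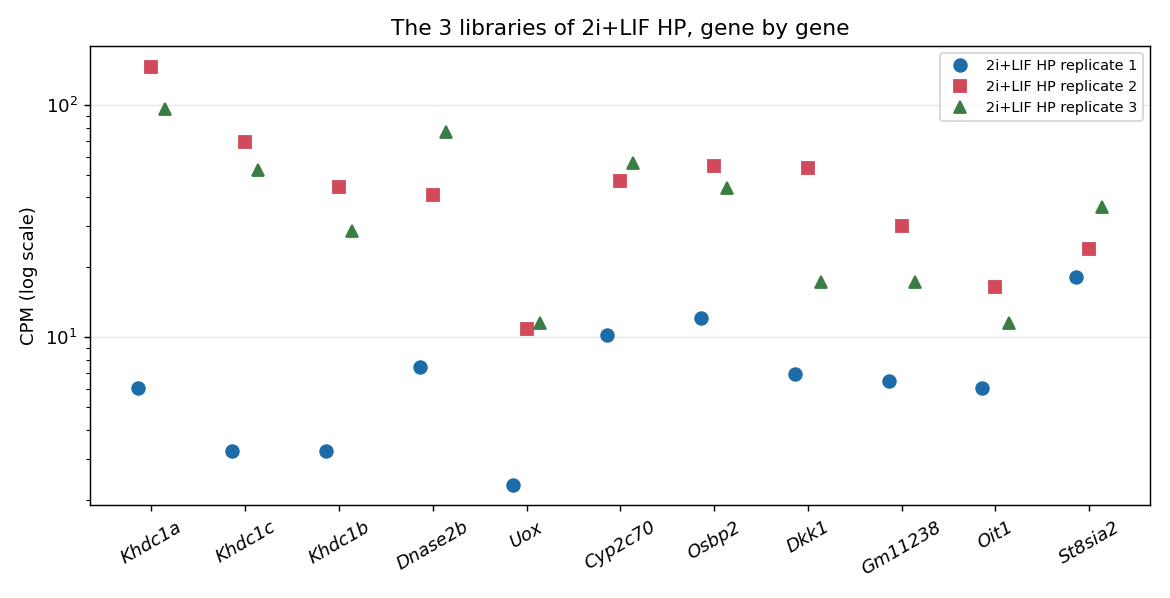
CPM on a log axis in the 3 replicates of 2i+LIF HP for the 4 genes, the Khdc1a neighbours Khdc1c and Khdc1b, the Dnase2b neighbour Uox, and the genes most like them. Replicate 1 is the lowest for every gene drawn, from a 24.1-fold gap for Khdc1a down to 2.01-fold for St8sia2.

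Over the 21 libraries 3 of the genes followed each other closely. On log2 CPM, Pearson's r was 0.986 for Khdc1a with Dnase2b, 0.987 for Dnase2b with Cyp2c70 and 0.975 for Khdc1a with Cyp2c70. Osbp2 followed at 0.883 with Dnase2b, 0.876 with Khdc1a and 0.86 with Cyp2c70. These values rest on 3 high libraries against 18 near zero and describe that contrast. The 5 genes most like each of the 4 came from 7 names: Khdc1a, Dnase2b and Cyp2c70 themselves and Gm11238, Dkk1, Oit1 and St8sia2. With ranks (Spearman) in place of Pearson, 2 of the 5 names were kept for Khdc1a, 3 for Dnase2b, 3 for Cyp2c70 and 0 for Osbp2.

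The 4 genes outside the choice that appeared in these lists showed the same profile. Dkk1 had a mean of 25.9 ± 24.4 CPM in 2i+LIF HP and 0.605 ± 0.407 in 2i+LIF PO, and CH+LIF HP had no counts. St8sia2 had 26.2 ± 9.34 CPM in 2i+LIF HP, with its replicates only 2.01-fold apart, and 0 counts in 2i+LIF LP. Gm11238 (17.9 ± 11.8 CPM) and Oit1 (11.3 ± 5.16 CPM) completed the group. They were found by their likeness to genes that had been chosen for this rise. No p-value is therefore given for St8sia2, Gm11238, Oit1 or Dkk1 alone. That St8sia2, Gm11238 and Dkk1 ranked among genes passing the test in the comparisons of the choice is no separate support. They lie on chromosomes 4, 7, 14 and 19, with Dkk1 on the same chromosome as Cyp2c70 but at 30545863 to 30549665.

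Among the genes next to the 4, only those of the Khdc1 cluster and Uox showed the 2i+LIF HP pattern. Khdc1c and Khdc1b start 18.7 and 33.9 kb downstream of the Khdc1a start on the same strand. Khdc1c had 7, 127 and 55 counts in 2i+LIF HP (3.25, 69.2 and 52.7 CPM) and Khdc1b had 7, 81 and 30 (3.25, 44.2 and 28.8 CPM), and both had 0 counts in the other 18 libraries. As for Khdc1a, replicate 1 was lowest and replicate 2 highest. The pooled level in 2i+LIF HP was at least 74.8-fold that of 2i+LIF LP for Khdc1c and at least 46.7-fold for Khdc1b. Neither passed the filter on low counts. Both were singled out for sharing the profile of Khdc1a, so no test is given for either alone.

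The 3 Khdc1 genes are not fully separate measurements. Of the distinct 50-base stretches in Khdc1a transcripts 42.2% also occur in Khdc1c and 4.13% in Khdc1b. Reads from such stretches cannot be assigned to 1 gene. Reads whose alignment was not unique were kept out of gene counts, 20.8 to 35.4% of the entries of a library. The levels of the Khdc1 genes, also per kilobase, may thus be too low, and by how much was not tested. Khdc1b shares 3.66% of its own stretches with Khdc1a. Dnase2b and Cyp2c70 transcripts share no 50-base stretch with another gene and Osbp2 shares 0.205%. Uox, around Dnase2b, had 5, 20 and 12 counts in 2i+LIF HP, 74% of its 50 counts, and since the strand setting is not given in the sources used here its reads and those of Dnase2b may be mixed.

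Within 200 kb of the 4 genes, 6, 10, 6 and 13 genes were annotated around Khdc1a, Dnase2b, Cyp2c70 and Osbp2, and 2, 6, 2 and 8 passed the filter. By edgeR 0 of these 18 were called in 2i+LIF HP against 2i+LIF LP, beside 3.67% of all genes, and 1 had an unadjusted p under 0.05, beside 17% of all genes. Against CH+LIF HP 0 of 18 were called, beside 2.02%, and 0 had an unadjusted p under 0.05, beside 11.6%. For 18 genes, counts of calls this low are near that background. Pdlim1, the nearest tested gene to Cyp2c70, had a log2 fold change of 0.21 against 2i+LIF LP (adjusted p 0.89 in edgeR), and Dusp18 beside Osbp2 had -1.09 (adjusted p 0.568). Gsta3, upstream of Khdc1a, had the largest rise of the 18 against 2i+LIF LP (log2 fold change 1.78, adjusted p 0.219 in edgeR). Against CH+LIF HP it had 1.35 (adjusted p 0.528), and 25.7% of its counts lay in 2i+LIF HP, beside 11.7% of all gene counts. The largest fall against 2i+LIF LP was that of Slc35e4 near Osbp2 (-1.5, adjusted p 0.434). Cyp2c50, Cyp2c54 and Cyp2c37, the P450 genes downstream of Cyp2c70, had no count in any library.

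**Figure D3:**
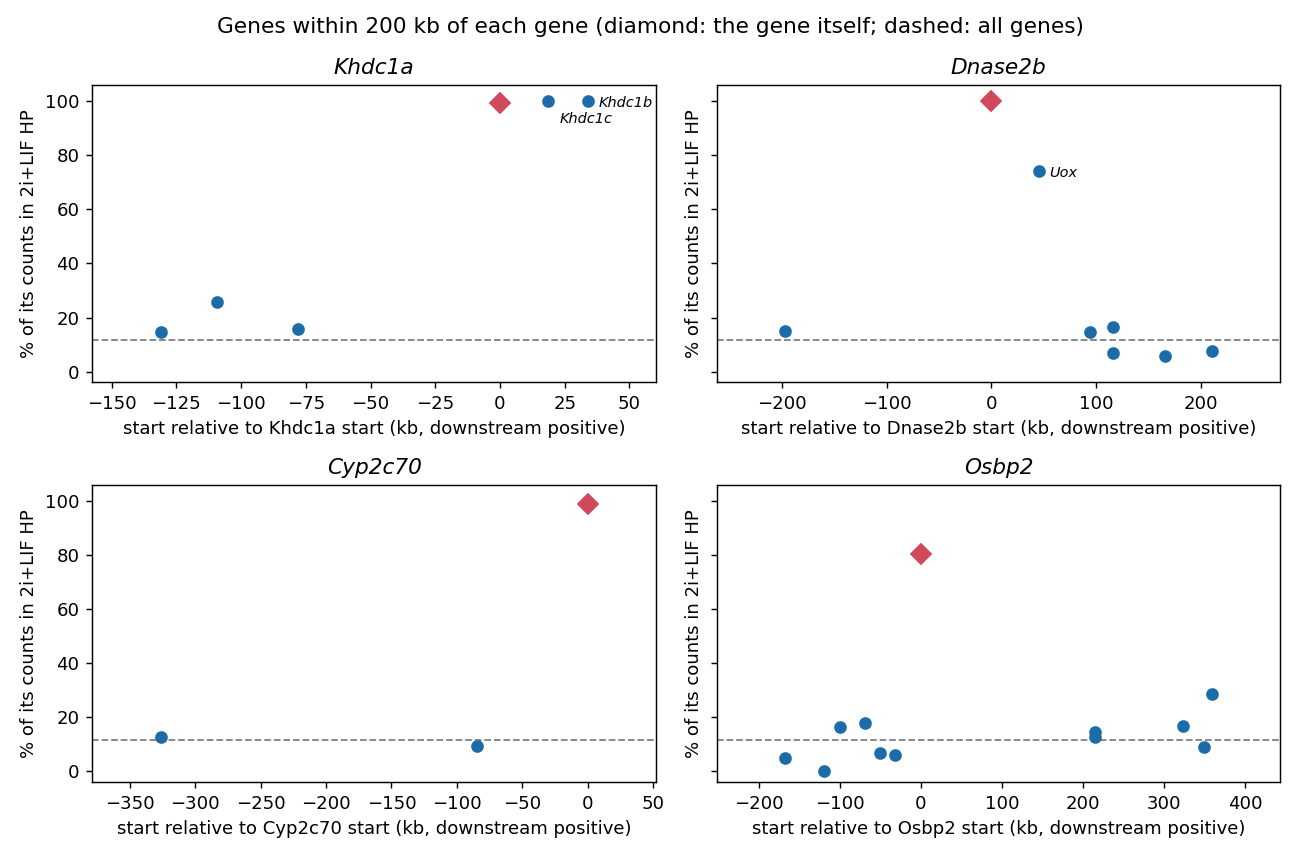
For each gene within 200 kb and with at least 10 counts, the percentage of its counts over all 21 libraries that came from 2i+LIF HP, against the distance of its start from the start of Khdc1a, Dnase2b, Cyp2c70 or Osbp2. The dashed line is the 11.7% of all gene counts that these 3 libraries hold; Khdc1c and Khdc1b sit at 100% and Uox at 74%, while the other neighbours lie between 0 and 28.6%.

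Genes of like families, tissues, stages or pathways, and Wnt targets, were taken as lists, 8 in all. They are described by counts of edgeR calls and by medians, and a shared function with the 4 genes is not implied. Of the list of Khdc1 family genes, oocyte KH-domain genes and their partners, 4 were tested. In 2i+LIF HP 0 were called against 2i+LIF LP or CH+LIF HP, beside 3.67% and 2.02% of all genes. An unadjusted p under 0.05 was found for 2 of the 4 in each, beside 17% and 11.6% of all genes, with 1 in each direction. Tle6, a subunit of the subcortical maternal complex of the egg, was the one with higher values, 25.1 ± 8.9 CPM in 2i+LIF HP, 9.22 ± 3.7 in 2i+LIF LP and 10.8 ± 1.77 in CH+LIF HP (log2 fold changes 1.44 and 1.19, adjusted p 0.159 and 0.383 in edgeR). Khdc3 had the lower values against 2i+LIF LP (log2 fold change -1.57, adjusted p 0.279) and Ooep against CH+LIF HP (-1.78, adjusted p 0.0654). Ooep, a further subunit of that complex, fell against LIF HP (10.8 ± 6.36 against 43.7 ± 15.8 CPM, n = 3 each, log2 fold change -1.96, SE 0.5, adjusted p 0.027 in edgeR), as did Dppa5a, a KH-domain gene of stem cells (36.3 ± 29.7 against 265 ± 99.6 CPM, adjusted p 0.0419). The comparison called 3.78% of genes. Against 2i+LIF PO both fell as well (log2 fold changes -3.39 and -3.77), along with Khdc3 (-2.23, adjusted p 0.0461), beside 10.6% of all genes called. The fall of Dppa5a against LIF HP lost its call when 1 library was left out in 5 of 6 cases, with log2 fold changes from -3.47 to -2.33. That of Ooep lost it in 4 of 6 (from -2.35 to -1.6). The fall of Khdc3 against 2i+LIF PO lost it in 5 of 6 (from -2.6 to -1.83), without the low-count filter (adjusted p 0.103) and with the replicate number as a block (0.0604).

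Genes of the 2-cell embryo, another setting of Khdc1 family expression, were too low to test: 0 of 16 with an identifier passed the filter. Their summed counts were 58, 49 and 26 in the replicates of 2i+LIF HP (27, 26.7 and 24.9 CPM). The sums ranged from 4.29 to 18.8 CPM in CH+LIF HP and from 0 to 7.71 CPM in the other groups. All 3 libraries of 2i+LIF HP were above the rest, and their mean was 26.2 ± 1.11 CPM, with no low value in replicate 1. Usp17la led the list with 43 of its 66 counts in 2i+LIF HP.

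For Dnase2b, 1 other nuclease, Dnase2a, and 1 lens gene, Bfsp1, passed the filter. Dnase2a was not called (log2 fold change -0.56, SE 0.48, adjusted p 0.602 against 2i+LIF LP). Bfsp1, a lens intermediate filament gene, rose against 2i+LIF PO (15.8 ± 6.34 against 2.07 ± 1.6 CPM, log2 fold change 2.85, SE 0.82, adjusted p 0.0257 in edgeR) and was not called against 2i+LIF LP (2.18, SE 0.82, adjusted p 0.15) or CH+LIF HP (3.14, SE 0.88, adjusted p 0.0653). Its highest library was replicate 1 of 2i+LIF HP (22.8 CPM), where Dnase2b was lowest. The call against PO was lost without PO replicate 1 or 3 or without 2i+LIF HP replicate 1 or 3 (log2 fold changes 2.48 to 3.69 over all 6 omissions). Of the lens markers, Mip and Lim2 were at 0 in 2i+LIF HP. The summed level of 5 markers was 13.6 to 23.2 CPM there, most of it Bfsp1. In the other groups the sum was 0 to 6.73 CPM, highest in LIF LP, where Mip had a mean of 3.19 CPM and Bfsp1 1.15. Cryab, a small heat shock protein and the lens gene with most counts, went the other way, with 1 count in 2i+LIF HP (0.637% of its total, beside 11.7% of all gene counts). Prox1 and Hsf4, regulators of lens development, had 10% and 10.3% of their counts there, against 54.2% for Bfsp1.

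The other Cyp2c genes and the hepatocyte markers were near zero. Of 14 Cyp2c genes with an identifier 10 had no counts in any library and 0 passed the filter. Of 4 tested genes of bile acid synthesis 0 were called against 2i+LIF LP, CH+LIF HP, LIF HP or 2i+LIF PO, beside 3.67%, 2.02%, 3.78% and 10.6% of all genes, a background that gives few or no calls among 4. Cyp7b1, a hydroxylase of the pathway, had 8.75 ± 2.73 CPM in 2i+LIF HP and 2.22 ± 2 in 2i+LIF LP (adjusted p 0.279 in edgeR), while LIF HP had 9.88 ± 2.31 (log2 fold change of 2i+LIF HP against it -0.18, adjusted p 0.93). Its means in CH+LIF HP and 2i+LIF PO were 2.88 ± 1.67 and 3.53 ± 2.78 CPM (adjusted p 0.514 and 0.35). Scp2 and Hsd17b4, which also serve peroxisomal fat breakdown, had 11 ± 4.3 and 11.5 ± 1.68 CPM in 2i+LIF HP and 8.05 ± 2.79 and 19.4 ± 3.85 in 2i+LIF LP (adjusted p 0.716 and 0.394). Amacr, a peroxisomal racemase, had 0.983 ± 0.934 CPM in 2i+LIF HP, the lower mean in all 4 comparisons, with log2 fold changes of -0.68, -1.2, -2.21 and -2.21 against 2i+LIF LP, CH+LIF HP, LIF HP and 2i+LIF PO (adjusted p 0.788, 0.748, 0.196 and 0.125 in edgeR). The hepatocyte markers Alb, Ttr and Serpina1a were at 0 in 2i+LIF HP, and 5 such markers summed to 0 to 2.32 CPM there and to 0 to 1.23 CPM elsewhere.

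For Osbp2, 11 genes of its family and of its membrane anchors were tested. The parent gene Osbp had 11.2 ± 3.88 CPM in 2i+LIF HP and 13 ± 13.1 in 2i+LIF LP (log2 fold change -0.2, SE 0.63, adjusted p 0.911 in edgeR). Of the 11 in 4 comparisons, the call of Osbpl7 was the only one, in 2i+LIF HP against CH+LIF HP (67 ± 9.16 against 28 ± 7.14 CPM, log2 fold change 1.27, SE 0.33, adjusted p 0.0403), and each of the 6 omissions of 1 library ended that call (1.09 to 1.45), as did the fit without the low-count filter (adjusted p 0.0994). The comparisons called 3.67%, 2.02%, 3.78% and 10.6% of all genes against 2i+LIF LP, CH+LIF HP, LIF HP and 2i+LIF PO. The median log2 fold change of the list was 0.1 against 2i+LIF LP and 0.26 against CH+LIF HP, beside 0.00688 and 0.00802 over all genes.

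The list with most calls was that of Wnt targets, the genes that beta-catenin drives when GSK3 is inhibited, to which Dkk1 belongs. This list was known from earlier results of these data to be high in 2i+LIF HP, so its counts are not independent evidence of that direction. Of 12 tested, 7 rose in 2i+LIF HP against 2i+LIF LP and 5 against CH+LIF HP, with 0 lower, where 1.63% and 0.921% of all genes were called higher. Against LIF HP 6 rose (1.68% of all genes) and against 2i+LIF PO 8 (5.8%). Each of these counts includes Dkk1, which was also found by its likeness to the 4 genes, and without it 6, 4, 5 and 7 of 11 rose against 2i+LIF LP, CH+LIF HP, LIF HP and 2i+LIF PO. Sp5, a direct target, had 135, 494 and 455 CPM in the replicates of 2i+LIF HP, so replicate 1 was again lowest, and a mean of 29.8 ± 28.7 CPM in 2i+LIF LP (log2 fold change 3.62, SE 0.69, adjusted p 0.00261 in edgeR). When only these 2 groups were fitted, that call of Sp5 ended (log2 fold change 3.53, adjusted p 0.0826) and the count of 7 fell to 2. Lef1 had 25.1, 50.1 and 29.7 CPM in 2i+LIF HP, and Axin2 48.8, 73.6 and 53.7, so both varied less among replicates than Khdc1a or Dnase2b. Notum, a secreted Wnt inhibitor, did not share this pattern, with 7.83% of its counts in 2i+LIF HP. It had 2.95 ± 2.8 CPM there and 16.7 ± 7.52 in 2i+LIF PO, whose 3 libraries were all above (log2 fold change -2.33, SE 0.86, adjusted p 0.0829 in edgeR), and log2 fold changes of -0.49, 0.48 and 1.58 against LIF HP, CH+LIF HP and 2i+LIF LP (adjusted p 0.813, 0.922 and 0.474). The median log2 fold change of the list was 3.23 against 2i+LIF LP and 3.3 against CH+LIF HP, or 2.84 and 3.21 without Dkk1. The count of 7 fell to 1 without 2i+LIF HP replicate 2, to 3 without its replicate 3, and to 3, 4 and 2 without 2i+LIF LP replicates 1, 2 and 3. The count of 5 fell to 3 without 2i+LIF HP replicate 1 or 2 and to 2 without any 1 of the CH+LIF HP replicates. The count of 6 fell to 2 without 2i+LIF HP replicate 2 and to 3 without LIF HP replicate 2 or 3, and the count of 8 to 4 without 2i+LIF PO replicate 2 or 2i+LIF HP replicate 2 and to 5 without 2i+LIF HP replicate 3.

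**Figure D4:**
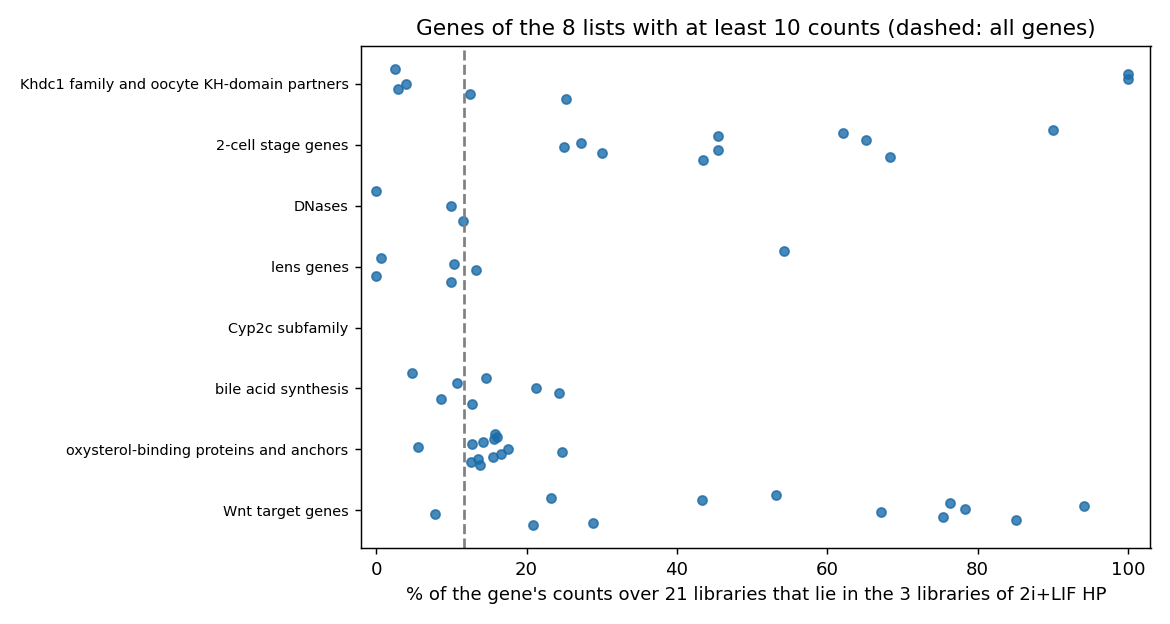
For each gene of the 8 lists with at least 10 counts, the percentage of its counts over 21 libraries that came from the 3 libraries of 2i+LIF HP (x axis; vertical offset within a list has no meaning). The dashed line is the 11.7% of all gene counts that lie in these libraries. Wnt targets and 2-cell genes lie mostly to its right and the oxysterol-binding proteins close to it. No gene of the Cyp2c list, which leaves out Cyp2c70, reached 10 counts.

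The cells of 2i+LIF HP still carried the markers of stem cells, with none of 8 at 0 in any group. Their sum was 1397 to 2029 CPM in 2i+LIF HP and 1720 to 3954 CPM in the other groups. The median library of 2i+LIF HP, at 1432 CPM, was below every library of the other groups. Germ cell markers summed to 149.2 to 422 CPM in 2i+LIF HP, to 119 to 151.2 in CH+LIF HP and to 22 to 134 elsewhere, nearly all of it Dazl, while the oocyte gene Oosp1 was at 0. Dazl had 140, 413 and 182 CPM in replicates 1, 2 and 3 of 2i+LIF HP, the same order as Khdc1a. Mesendoderm markers summed to 23 to 46.9 CPM in 2i+LIF HP and to 3.32 to 35.1 elsewhere, and trophectoderm markers to 36.4 to 85 with Elf5 at 0 and to 33.9 to 164 elsewhere. Primitive endoderm markers summed to 3.25 to 14.2 CPM in 2i+LIF HP, with Gata4 and Sox7 at 0, and to 0.481 to 5.03 elsewhere. Feeder markers summed to 2.88 to 10.4 CPM in 2i+LIF HP, with Col3a1 and Dcn at 0, and to 4.21 to 36.4 elsewhere. The part of any of these cells in the levels of the 4 genes was not tested.

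Gene counts per library ranged from 1132126 to 3783043 with a median of 1763531. Of the 21 libraries 2 stood apart: 2i+LIF LP replicate 1, in which Gm42418 took 31.7% of counts, and 2i+LIF PO replicate 1, with 39.1% mitochondrial counts. Neither belongs to 2i+LIF HP. The 4 genes had 0 counts in 2i+LIF LP replicate 1, and in PO replicate 1 only Osbp2 was seen, with 1 count.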

How the data were processed

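For each of the 21 libraries (7 groups of 3) the authors deposited raw counts of reads per Ensembl gene ID. Per the submitters' processing notes, reads were handled with bcl2fastq, STAR 2.6.0a and HTSeq on mm10; the order, options, annotation and strand setting are not given in the sources used here. The closing entries that name no gene (38 to 52.6% of a library) stayed out of library sizes and tests. Symbols and positions came from GENCODE M21 (31011 of 31053 IDs matched), promoters from RefSeq (GRCm38.p6; 3 of the 4 genes).

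Tests used edgeR 4.0.16 in R 4.3.3: 1 quasi-likelihood fit of all 21 libraries with a coefficient per group, TMM scaling, filterByExpr (10643 genes), two-sided tests and Benjamini-Hochberg adjustment within a comparison, threshold 0.05. CPM are counts times 1e+06 over the TMM-scaled library size, and their log2 values had a prior count of 2 added. The SE of a log2 fold change is its size over the root of F. Bounds and ratios used pooled counts and totals without TMM, with 3 counts for a group at 0 and exact 95% intervals. Gene counts of 1132126 to 3783043 put 3 counts at 0.748 to 3.09 CPM in a library. The scripts were tested on simulated counts.

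The 4 genes and the 8 lists (98 genes with an ID, 33 tested) were chosen with earlier results of these data known. Named genes are the 4 and, in part, list genes called in a comparison with 2i+LIF HP and tested neighbours within 200 kb. The 5 genes with the highest Pearson r and the genes ranked just outside the choice are also named. Other names were chosen after their values were seen. Same-numbered replicates were not treated as pairs, because in no comparison did all 3 pairs of deviations from the group means correlate at over 0.1. In 2i+LIF HP against LIF HP (r 0.327, 0.249 and 0.0501) each of the 3 still correlated best with its own number, so a weak pairing there is possible. Alternatives were DESeq2 1.42.0, its size factors in edgeR, no low-count filter, mitochondrial genes and Gm42418 left out, only the groups compared, a replicate block, each replicate left out and, chosen after seeing the data, omission of the 2 libraries that stood apart and of Dkk1 from the Wnt targets.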

Additional observations from a re-analysis of the deposited data

How the results depend on the processing

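With each replicate left out, the mean CPM in 2i+LIF HP ran from 50.9 to 121 for Khdc1a, 24.2 to 58.8 for Dnase2b, 28.6 to 51.7 for Cyp2c70 and 28.1 to 49.3 for Osbp2. Outside 2i+LIF HP, Osbp2 changed direction in comparisons that were not called. Its log2 fold change in CH+LIF LP against 2i+LIF PO went from 1.04 to -0.0331 without CH+LIF LP replicate 1, and that in LIF LP against 2i+LIF PO from -0.892 to 0.136 without PO replicate 3. The highest log2 fold changes over the omissions were 2.03 and 0.136, and the lowest -0.0331 and -2.11.

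The counts of genes called depended on the settings. In 2i+LIF HP against 2i+LIF LP (391 genes), DESeq2 gave 672, no filter 634, omission of the 2 libraries that stood apart 627 and only the groups compared 52. Against CH+LIF HP (215) these gave 340, 354, 543 and 336, and against LIF HP (402) 743, 689, 1427 and 641. Against 2i+LIF PO (1127) omission of the 2 libraries gave 2150 and only the groups compared 328. The same pair of settings gave 2370 and 2539 for LIF HP against LIF LP (1060), 1434 and 420 for CH+LIF LP against PO (884), and 2279 and 826 for LIF LP against PO (1272); for LIF HP against PO (1306) only the groups compared gave 618. LIF LP against CH+LIF LP (5) had 23, 32, 23 and 21 under the 4 settings. Leaving out 1 replicate gave 136 to 486, 99 to 212, 123 to 293 and 364 to 1378 genes for 2i+LIF HP against 2i+LIF LP, CH+LIF HP, LIF HP and PO. It gave 399 to 811 for LIF HP against LIF LP, 380 to 768 for CH+LIF LP against PO, 571 to 1491 for LIF LP against PO, 424 to 1404 for LIF HP against PO and 1 to 6 for LIF LP against CH+LIF LP.

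Of the 12 Wnt targets, only the groups compared left 2 called against 2i+LIF LP, while against CH+LIF HP DESeq2 called 8, no filter 9, omission of the 2 libraries 10 and only the groups compared 10. Omitting 1 replicate gave 1 to 6, 2 to 4, 2 to 4 and 4 to 7 against 2i+LIF LP, CH+LIF HP, LIF HP and PO. Over the other 7 lists together, 0, 1, 2 and 4 genes were called in the same order. No filter gave 2, 4, 4 and 8, omission of the 2 libraries 2, 5, 8 and 8, and the omission of 1 replicate 0 to 2, 0 to 2, 0 to 4 and 3 to 7. DESeq2 gave 3 against CH+LIF HP and 4 against LIF HP, and only the groups compared gave 3 against CH+LIF HP. With ranks in place of Pearson's r, 2, 3, 3 and 0 of the 5 most like genes were kept for Khdc1a, Dnase2b, Cyp2c70 and Osbp2. Apart from fewer genes or libraries entering a fit, the cause was not tested.

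The replicate number as a block, which the labels do not tie to a shared day, gave 437 genes against 2i+LIF LP and 218 against CH+LIF HP. It moved the other lists from 1 to 2 calls against CH+LIF HP, ended the calls of T against CH+LIF HP (adjusted p 0.0735) and of Cdx2 and Khdc3 against PO (0.0575 and 0.0604), and called Osbp2 in 0 of 5 comparisons. With only the groups compared, Osbp2 gave no value in these comparisons. Outside 2i+LIF HP no library had more than 12 counts of it, and the fold that such counts could show was not tested.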
